A study of Mus musculus with 6 samples.

Results

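The ribosome of the cytosol is built from ribosomal RNA and a fixed set of ribosomal proteins, and the genes that encode those proteins were examined in mouse cochlear organoids grown in soft or stiff gels. Genes were chosen by symbol alone: Rpl or Rps followed by a number with an optional letter and further number, together with Rpsa and Rplp0 to Rplp2. This rule took 82 of the 15016 genes in the deposited table, 50 of the large and 32 of the small subunit. It used no measured value. It leaves out Fau, whose product is a ribosomal protein fused to a ubiquitin-like protein, and it takes in 5 paralogs or copies, Rpl22l1, Rps27l, Rpl7l1, Rpl6l and Rpl32l.

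RNA-seq was measured in 6 libraries, 3 from soft and 3 from stiff gels. All came from wild-type organoids derived from progenitor cells of the inner ear. Both groups were first expanded with EGF, bFGF, IGF, CHIR99021, valproic acid, 2-phospho-L-ascorbic acid and 616452 in a medium with N2 and B27. They then received a differentiation medium with CHIR99021 at 3 µM, which inhibits the kinase GSK3, and LY411575 at 5 µM, which inhibits gamma-secretase and thereby Notch cleavage. The gels combined gelatin methacryloyl, hyaluronic acid and the RGD peptide to which cells adhere, and the organoids entered soft or stiff gels at the differentiation stage. As labelled, the groups differ in the gel alone, and there is no library from before differentiation. Gel stiffness, time in the gels and animal age are not given in the sources used here. Nothing in the labels says that the libraries of a group are separate cultures, so every p-value below rests on a spread between libraries that could be technical. Soft and stiff gels are set against each other to learn what the stiffness around the cells does to their genes' expression.

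Ribosomal proteins are needed in nearly equal amounts, since each mature ribosome holds 1 copy of almost every one of them. Growing cells make their mRNAs at very high levels. In mammals most of these mRNAs begin with a cytidine followed by a run of pyrimidines, the terminal oligopyrimidine tract, through which mTOR signalling and the RNA-binding protein Larp1 set how strongly they are translated. Because much of their control acts on translation, mRNA levels need not follow ribosome output.

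The start sites of members whose mRNA level varied least or most between the libraries are shown so that this shared element can be seen in genes of both kinds. Windows of 30 bases were taken from the RefSeq promoter table of build GRCm38.p6, 15 bases before the listed start and 15 from it on, written 5′ to 3′ on the gene's strand. Capitals mark a C followed by at least 5 bases that are each C or T and beginning within 5 bases of the listed start. Of the members steadiest over the 6 libraries, Rpl7a (chr2:26910792-26910821, plus strand), Rps6 (chr4:86857353-86857382, minus strand), Rps10 (chr17:27635230-27635259, minus strand) and Rpl27 (chr11:101442230-101442259, plus strand) read as follows.
Rpl7a: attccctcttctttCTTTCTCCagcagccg
Rps6: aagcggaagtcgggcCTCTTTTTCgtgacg
Rps10: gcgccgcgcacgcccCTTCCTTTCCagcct
Rpl27: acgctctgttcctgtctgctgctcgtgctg

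Among the most variable members, Rpl22l1 (chr3:28805493-28805522, plus strand), Rps21 (chr2:180257364-180257393, plus strand, 1 of 2 listed starts), Rps27 (chr3:90213634-90213663, minus strand), Rpl39 (chrX:37085208-37085237, minus strand) and Rps28 (chr17:33824548-33824577, minus strand) read as follows.
Rpl22l1: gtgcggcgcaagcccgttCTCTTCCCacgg
Rps21: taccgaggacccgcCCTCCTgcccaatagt
Rps27: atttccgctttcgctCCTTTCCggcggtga
Rpl39: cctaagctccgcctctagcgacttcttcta
Rps28: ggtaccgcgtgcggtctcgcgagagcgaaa

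Of the 82 members, 61 matched the promoter table, and 27 of them (44.3%) held the tract at the listed start. It was held by 16 of 37 large subunit genes and 11 of 24 small subunit genes. It was held by 11.9% of all 27025 genes listed there. The same letters on the other strand were found in 5 members (8.2%) and in 15.1% of all genes. A match describes these letters only, and a RefSeq start need not be the start used in these cells. Both the steadiest and the most variable members included genes with and without the tract. The median log2 fold change between the gels was 0.01 in the members with the tract and 0.01 in those without.

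Ribosomal protein mRNAs made up a large part of the RNA in every library. Their values are FPKM, reads scaled by the length of the gene model and by library depth. Summed over the 82 genes they came to 82300, 86369 and 90025 FPKM in soft replicates 1 to 3, and to 79879, 93002 and 90026 FPKM in stiff replicates 1 to 3. This was 22.0 ± 0.8% (SD, n = 3) of all summed FPKM in soft gels and 22.2 ± 1.2% (SD, n = 3) in stiff gels. The groups overlapped, and the lowest library of each was replicate 1. As a share of reads, which does not correct for their short length, the genes took 7.28 ± 0.32% (SD, n = 3) in soft and 7.39 ± 0.52% (SD, n = 3) in stiff gels. In bulk RNA, fewer cells of a type and less RNA per cell cannot be told apart.

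The balance between the subunits was nearly the same in every library. Large subunit genes summed to 1.382, 1.344 and 1.353 times the small subunit genes in soft replicates 1 to 3, and to 1.368, 1.337 and 1.357 times in stiff replicates 1 to 3. The mean ratio was 1.36 ± 0.02 (SD, n = 3) in soft and 1.35 ± 0.02 (SD, n = 3) in stiff gels, a difference below the spread between libraries. The median gene of the small subunit had the higher level, 1202 FPKM against 835 FPKM for the large subunit, and the sum favoured the large subunit through its greater number of genes.

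**Figure D1:**
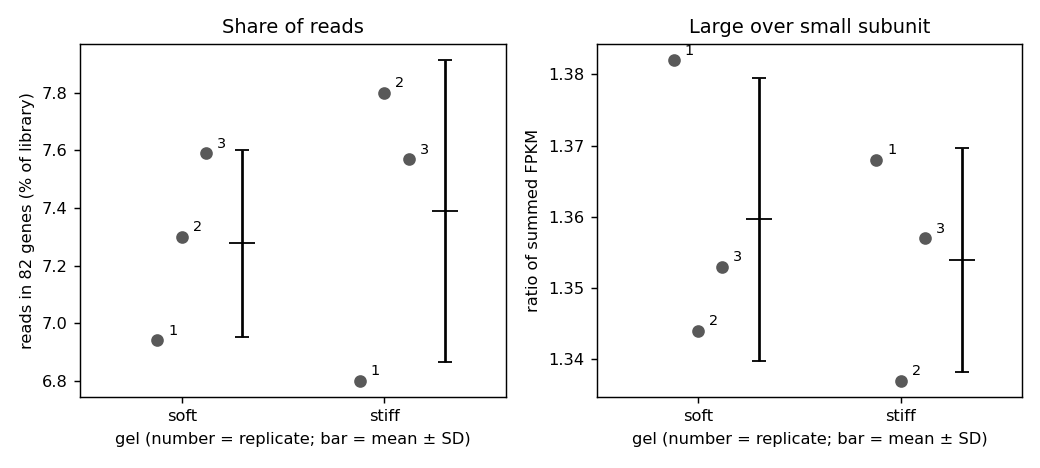
The left panel plots the share of each library's reads in the 82 ribosomal protein genes (percent) and the right panel the summed FPKM of large over small subunit genes, with 1 numbered point per library and a bar for mean ± SD; neither axis starts at 0. Shares lie between 6.80% and 7.80% with replicate 1 lowest in both gels, ratios lie between 1.337 and 1.382, and soft and stiff libraries overlap in both panels.

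Single genes ranged from 4.16 FPKM for Rpl32l to 3640 FPKM for Rpl41, which encodes a very short, basic peptide of the large subunit. The median was 934 FPKM, and 67 members were above 500 FPKM. Of the 46 genes of the whole table above 1000 FPKM, 35 were ribosomal protein genes. By the deposited FPKM, the most abundant large subunit genes were Rpl41, Rpl28 (2362 FPKM) and Rplp1 (2357 FPKM), the last a protein of the stalk that recruits translation factors. In the small subunit they were Rps26 (2486 FPKM), which sits where mRNA leaves the ribosome, Rps15 (2207 FPKM) and Rps18 (1850 FPKM). This order depends on the length used: per length of the principal GENCODE transcript Rpl28 stood at 1518 and Rps26 at 1636, below several other members of their subunits, while Rpl41 (3740) and Rps15 (2785) were highest in theirs. Each of these genes overlapped between soft and stiff libraries.

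The lowest values were partly those of long gene models. Rps15a, an ordinary small subunit protein, was listed at 134 FPKM with a model of 5136 bases, where its principal transcript in the GENCODE annotation has 640 bases. Per length of that transcript its reads gave a level of 1072, close to the median of 1064 for the 80 members with such a transcript. Rpl22 moved in the same way from 200 FPKM to 988, with a model of 2343 and a transcript of 474 bases. In all, 10 members had a model more than 2 times as long as the principal transcript. With the transcript length, 71 of 80 members lay within 2-fold of the median, against 60 of 82 with the deposited FPKM, and the SD of the log2 levels fell from 1.21 to 0.91. Spearman's rho between level and length, across genes that share libraries and depth, went from -0.42 to -0.08. Levels between genes below are given per deposited model unless stated.

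**Figure D2:**
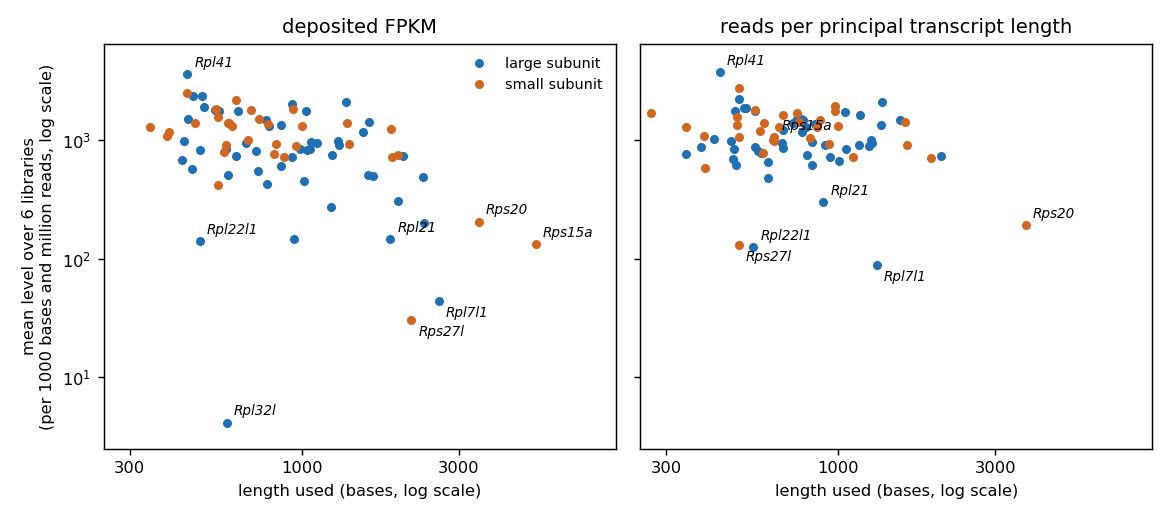
Each point is 1 ribosomal protein gene, by the length used (bases, log scale) and its mean level over the 6 libraries (reads scaled by that length and by depth, log scale), in blue for the large and orange for the small subunit. With the gene model length of the deposited FPKM (left, 82 genes) long models lie low, as for Rps15a at 134 FPKM; with the principal transcript length (right, 80 genes) most genes form a band around 1064 and Rpl7l1, Rpl22l1 and Rps27l lie lowest.

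With the transcript length, the 3 lowest members were paralogs: Rpl7l1 at 88.5, Rpl22l1 at 126 and Rps27l at 132. Next came Rps20 at 192 and Rpl21 at 302. The principal transcript of Rps20 has 3706 bases, longer than its gene model of 3446 bases. Rpl6l and Rpl32l had no principal transcript and are intron-less copies by their span, the model being as long as the locus. Reads from near-identical copies can be split between them in the alignment, so these 2 genes, Rpl21 and other members with many copies in the genome are uncertain.

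The paralogs were also read as a percentage of their parent genes in the same library, where soft and stiff gels overlapped. Rps27l, a paralog known as a p53 target, stood at 2.59, 2.26 and 2.55% of Rps27 in soft replicates 1 to 3 and at 2.72, 1.96 and 2.27% in stiff replicates 1 to 3. Rpl7l1, a nucleolar relative of Rpl7, stood at 2.23 ± 0.135% of it (SD, n = 3) in soft and 2.12 ± 0.0612% (SD, n = 3) in stiff gels. These percentages use the deposited models, which are much longer for both paralogs than for their parents. Rpl6l stood at 16.2 ± 0.478% and 15.5 ± 0.794% of Rpl6, and Rpl32l at 0.217 ± 0.0179% and 0.217 ± 0.0313% of Rpl32 (SD, n = 3 each). Rpl3l, Rpl10l and Rpl39l were not analysed here. Their parents Rpl3, near the peptidyl transferase centre, and Rpl10, which joins late in assembly, were at 1173 ± 71.2 and 1293 ± 136 FPKM (SD, n = 3) in soft and at 1185 ± 47.7 and 1328 ± 20.1 FPKM (SD, n = 3) in stiff gels.

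Between soft and stiff gels no ribosomal protein gene passed the test. Of 11780 genes tested with limma on log2(FPKM + 1), 3.13% were higher and 2.68% lower in stiff gels at a Benjamini-Hochberg adjusted p under 0.05, and 0 of the 82 members were called in either direction. All 82 members passed the filter on low values. At an unadjusted p under 0.05 there were 0 members (limma), against 21.7% of all tested genes. The authors' deposited table gives q under 0.05 for 0 members, against 9.46% of the same genes. It lists 1 member, Rpl22l1, with an unadjusted p under 0.05, against 19.3% of these genes, and a q of 0.139. Soft and stiff libraries overlapped for every member, while 25.9% of all tested genes had groups that did not overlap.

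The fitted differences were small. The median log2 fold change, stiff minus soft, was 0.01 over the 82 members, 0.01 for the large and 0.02 for the small subunit, beside 0.03 over all tested genes. Above 0 were 32 of 50 large and 23 of 32 small subunit genes, together 55 of 82, while 58.8% of all tested genes were above 0. The values ran from -0.08 to 0.36, and 72 members were within 0.1 of 0. Their median absolute value was 0.03, against 0.09 over all tested genes.

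A gene that misses the threshold is not thereby shown to be equal, so the intervals were read as well. The 95% confidence interval (limma) lay within 0.5 of 0 on the log2 scale, a 1.41-fold change, for 80 of 82 members. Rpl22l1 and Rps21 were the 2 exceptions. Within 0.25, a 1.19-fold change, lay the intervals of 51 members, and the median interval reached 0.20 to each side.

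**Figure D3:**
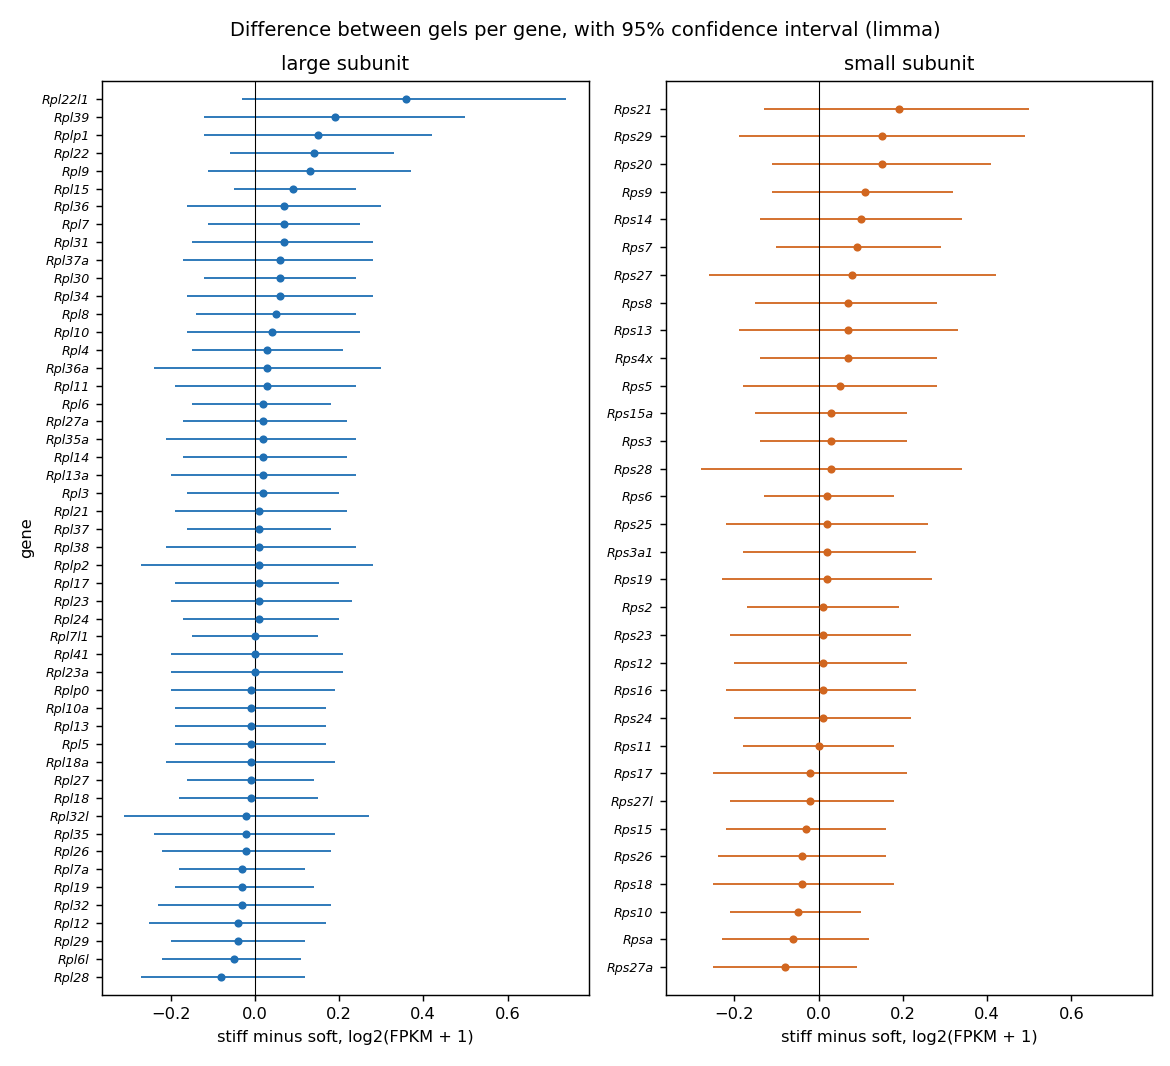
Each point is the difference between stiff and soft gels for 1 gene on the log2(FPKM + 1) scale, with its 95% confidence interval (limma, 3 libraries per gel), for 50 large subunit genes on the left and 32 small subunit genes on the right. Every interval crosses 0, and Rpl22l1 has the highest value, 0.36, with an interval from -0.03 to 0.74.

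Rpl22l1 had the largest difference of any member. Its protein can stand in for Rpl22 in the ribosome, and in mouse Rpl22 is known to hold down Rpl22l1 mRNA. The gene lies on chromosome 3, 28805508 to 28807424 (build mm10). Its level was 106, 129 and 135 FPKM in soft replicates 1 to 3 and 116, 182 and 185 FPKM in stiff replicates 1 to 3. Stiff replicates 2 and 3 were above all soft libraries, and stiff replicate 1 fell within the soft range. On the log2 scale stiff minus soft was 0.36 ± 0.17 (SE; adjusted p = 0.266 by limma).

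Rpl22 itself (chromosome 4, 152324436 to 152334082) was measured at 180, 192 and 198 FPKM in soft and at 184, 223 and 223 FPKM in stiff replicates 1 to 3. Again only stiff replicate 1 lay among the soft libraries. Stiff minus soft was 0.14 ± 0.09 on the log2 scale (SE; adjusted p = 0.406 by limma). Rpl22l1 stood at 59.1, 67.4 and 67.9% of Rpl22 in soft replicates 1 to 3 and at 63.1, 81.7 and 83.0% in stiff replicates 1 to 3. These percentages use the deposited models, and the model of Rpl22 is much longer than its principal transcript. Per length of the principal transcript, the mean level over the 6 libraries was 126 for Rpl22l1 and 988 for Rpl22. The mean log2 ratio of Rpl22l1 to Rpl22 was 0.22 higher in stiff gels, and the groups overlapped. Paralog and parent were thus both highest in stiff replicates 2 and 3.

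Rpl39, a small protein at the exit tunnel of the large subunit (chromosome X, 37082518 to 37085222), had 551, 662 and 678 FPKM in soft and 580, 810 and 783 FPKM in stiff replicates 1 to 3. Stiff minus soft was 0.19 ± 0.14 on the log2 scale (SE; adjusted p = 0.48 by limma). Rps21, a small subunit protein (chromosome 2, 180257379 to 180258444), had 327, 405 and 435 FPKM in soft and 359, 498 and 474 FPKM in stiff replicates 1 to 3, a difference of 0.19 ± 0.14 on the log2 scale (SE; adjusted p = 0.514 by limma). As for Rpl22l1, replicate 1 was the lowest library of each gel in both genes. The next members were Rplp1 at 0.15 (2231 ± 213 against 2483 ± 345 FPKM, SD, n = 3), Rps29 at 0.15 (1034 ± 135 against 1153 ± 223 FPKM, SD, n = 3) and Rps20 at 0.15 (195 ± 19.7 against 217 ± 30.7 FPKM, SD, n = 3). In each the log2 difference was below the SD over the 6 libraries on the log2(FPKM + 1) scale, which was 0.176, 0.234 and 0.182.

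At the other end stood Rps27a and Rpl28, both at -0.08. Rps27a, which is made as a fusion to ubiquitin (chromosome 11, 29545842 to 29548040), had 736, 811 and 806 FPKM in soft and 754, 703 and 771 FPKM in stiff replicates 1 to 3 (limma adjusted p = 0.624). Rpl28 (chromosome 7, 4792965 to 4794547) had 2388, 2416 and 2467 FPKM in soft and 2119, 2456 and 2328 FPKM in stiff replicates 1 to 3 (limma adjusted p = 0.681). The lowest stiff library was replicate 2 for Rps27a and replicate 1 for Rpl28. Rpsa (-0.06), Rpl6l (-0.05), Rps10 (-0.05) and Rpl12 (-0.04), a protein at the base of the stalk, came next, with limma adjusted p from 0.726 to 0.87.

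Members with roles outside the shared core showed no call either. Rpsa, also described as a precursor of a laminin receptor and so of interest where the matrix is varied, had 1201, 1259 and 1319 FPKM in soft and 1184, 1274 and 1176 FPKM in stiff replicates 1 to 3. Its interval ran from -0.23 to 0.12. Rpl38, known from mouse mutants with skeletal and middle ear defects, had 532, 571 and 599 FPKM in soft and 496, 597 and 631 FPKM in stiff replicates 1 to 3, with an interval from -0.21 to 0.24. Rps6, the substrate of the S6 kinases downstream of mTOR, was among the steadiest genes, at 950, 888 and 936 FPKM in soft and 916, 950 and 953 FPKM in stiff replicates 1 to 3. Its interval ran from -0.13 to 0.18.

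Rpl5 and Rpl11 bind Mdm2 when ribosome assembly is disturbed and so bear on p53. Rpl5 had 707, 760 and 759 FPKM in soft and 679, 776 and 761 FPKM in stiff replicates 1 to 3, and Rpl11 had 503, 497 and 511 FPKM in soft and 442, 546 and 559 FPKM in stiff replicates 1 to 3. Their log2 fold changes were -0.01 and 0.03. The stalk proteins Rplp0 and Rplp2 were at -0.01 and 0.01, Rps19, mutated in Diamond-Blackfan anaemia, at 0.02, and Rpl10a, a protein of the large subunit's mobile side stalk, at -0.01.

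What the members shared was a pattern between libraries that the gels did not follow. Replicate 1 of both gels was low and stiff replicate 2 was most often highest. The lowest of the 6 libraries was stiff replicate 1 for 45 members and soft replicate 1 for 31, together 76 of 82 (92.7%). For the other tested genes the lowest library was one of these in 28.3%, and for the other genes with a model under 1000 bases in 44.1%. Both replicate 1 libraries lay below the other 4 in 59 members, and in 5.41% of the other tested genes. The highest library was stiff replicate 2 for 42 members, stiff replicate 3 for 19 and soft replicate 3 for 17.

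Averaged over members, the deviation from each gene's mean on the log2(FPKM + 1) scale was -0.09, -0.01 and 0.05 in soft replicates 1 to 3 and -0.13, 0.10 and 0.07 in stiff replicates 1 to 3. Both subunits moved alike: in stiff replicate 1 the large subunit stood at -0.12 and the small at -0.13, and in stiff replicate 2 at 0.10 and 0.11. The median deviation of all tested genes stayed between -0.02 and 0.03 in the 6 libraries. The lowest and highest libraries, at -0.13 and 0.10, were thus both from stiff gels, while the median member differed by 0.01 between the gels. These 2 single libraries were picked as the extremes of 6. Their distance therefore cannot be weighed against a difference between groups of 3. The labels do not say whether a replicate number marks anything that a soft and a stiff library share. Across all tested genes, correlations of deviations between libraries of equal number ran from -0.21 to 0.22, which cannot decide this for the members.

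**Figure D4:**
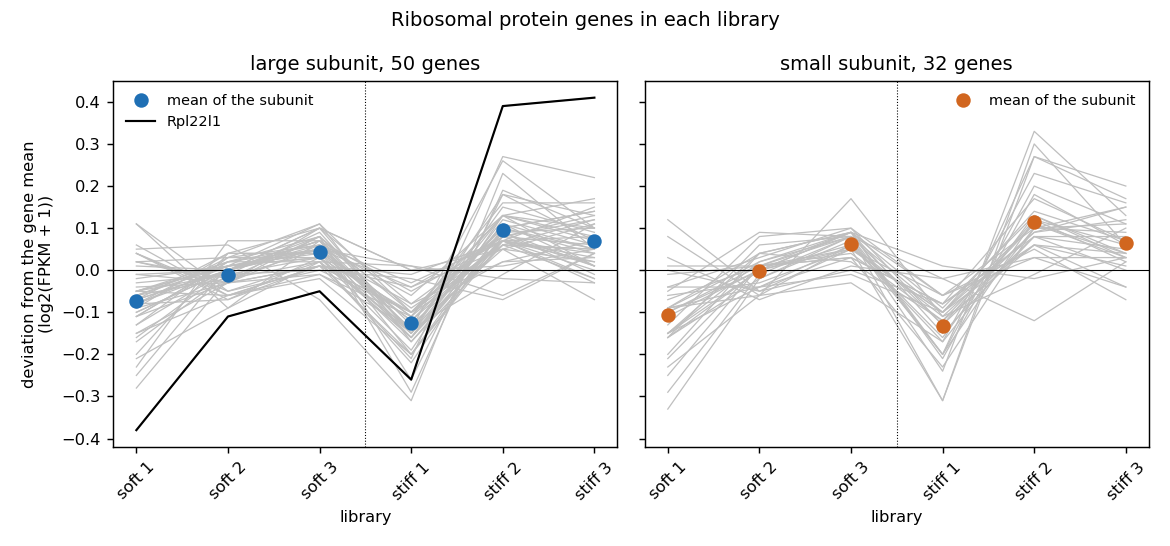
For each library (x axis) the grey lines join the values of 1 gene as deviation from its mean over 6 libraries, on the log2(FPKM + 1) scale, for the large (left) and small subunit (right); coloured points are subunit means and the black line is Rpl22l1. The mean is lowest in stiff replicate 1, at -0.12 and -0.13, and highest in stiff replicate 2, at 0.10 and 0.11, in the large and small subunit; the libraries have no order and the lines serve only to follow a gene.

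The members followed each other closely over the 6 libraries. The first principal component of their log2 values held 80.1% of their variance, against 62.5% for all tested genes. The median correlation of a member with the mean of the others was 0.89 over 6 libraries that all members share, and 58 members were above 0.8. Fau, left out by the naming rule, correlated with the members at 0.93. Fau had 905 ± 72.0 FPKM (SD, n = 3) in soft and 892 ± 96.5 FPKM (SD, n = 3) in stiff gels.

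A few members went their own way. Rpl29, Rpl27, Rpl7a and Rps27a had negative correlations with the rest, from -0.43 to -0.05. Rpl7a had 851, 827 and 869 FPKM in soft and 843, 827 and 820 FPKM in stiff replicates 1 to 3, the smallest spread of any member, with an SD over the 6 libraries of 0.032 on the log2(FPKM + 1) scale. Rpl29 was lowest in stiff replicate 2, at 431 FPKM, where most members were highest. The other steady genes were Rps6 (SD 0.040), Rps10 (0.044) and Rpl27 (0.045). The widest spread was that of Rpl22l1 (0.329), followed by Rps29 (0.234), Rps21 (0.233), Rps27 (0.223), Rpl39 (0.223) and Rps28 (0.198). These genes were picked out after their values were seen.

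Gene length moved with this pattern. Ribosomal protein genes are short, with a median model of 808 bases against 3539 for all tested genes, and Spearman's rho between SD and length was -0.39 across the 82 genes. The 14 members of at most 500 bases had median deviations of -0.20 in stiff replicate 1 and 0.18 in stiff replicate 2. The 56 other genes of that length had -0.14 and 0.11, while the 9217 other genes above 2000 bases were at 0.01 and 0.00. Stiff replicate 1 was thus low, and stiff replicate 2 high, in short genes of other kinds too. The order was not the same throughout: in the 56 other genes stiff replicate 3 was higher still, at 0.16, against 0.11 in the 14 members.

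Soft replicate 1 was different in this respect. Members stood between -0.06 and -0.09 in every length class there, and the other genes between -0.04 and 0.02. The 7 members above 2000 bases had -0.09 in soft replicate 1 and -0.11 in stiff replicate 1, and the other genes of that length 0.00 and 0.01. With the deviation of other genes of like length taken off, the mean deviation of the members was -0.08, 0.04 and 0.07 in soft replicates 1 to 3 and -0.06, 0.04 and -0.03 in stiff replicates 1 to 3. Replicate 1 stayed the lowest library of each gel. The part of RNA quality or library preparation in this was not tested.

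**Figure D5:**
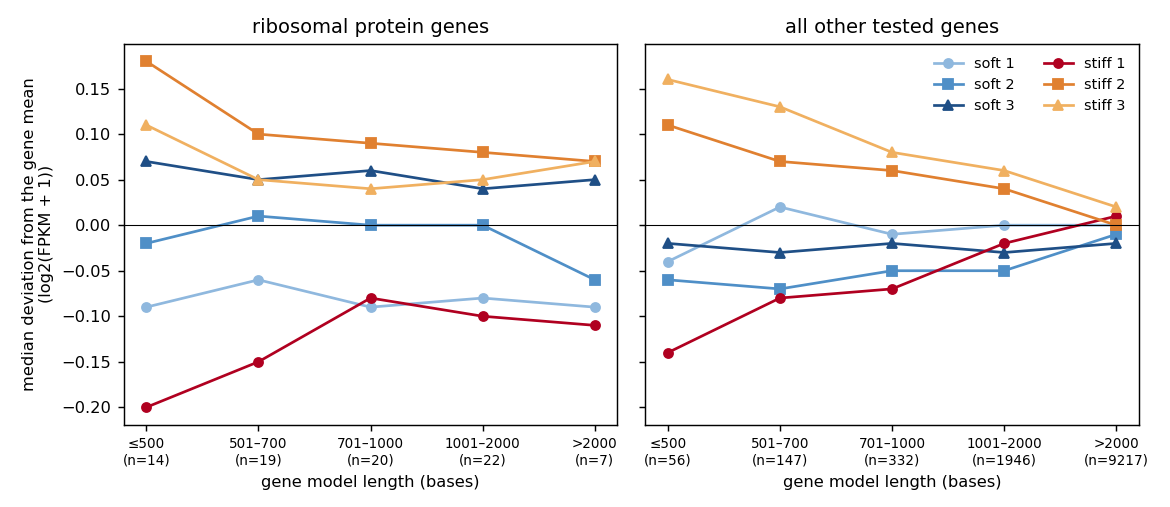
Median deviation from the gene mean (log2(FPKM + 1)) by class of gene model length in bases, with the number of genes in each class, for ribosomal protein genes (left) and all other tested genes (right); each line is 1 library. Stiff replicate 1 is at -0.20 and stiff replicate 2 at 0.18 in the shortest members, other short genes spread in the same direction, and soft replicate 1 is below 0 in every class of members.

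The comparison of the gels was also made without both replicate 1 libraries, a choice made after these values were seen. It left 2 soft and 2 stiff libraries, and 2 of 82 members (2.44%) were then higher in stiff gels, against 5.49% of all tested genes. These were Rpl22l1, at 0.47 ± 0.06 (SE; limma adjusted p = 0.0064), and Rpl39, at 0.25 ± 0.06 (SE; limma adjusted p = 0.047). No member was lower, against 5.24% of all tested genes. Without stiff replicate 1 alone, 0 members were called (limma), against 0.958% of all tested genes, 9 had an unadjusted p under 0.05 (11%, against 20% of all tested genes) and the median log2 fold change of the members was 0.09. Rpl22l1 was then at 0.58 ± 0.10 (SE; limma adjusted p = 0.0586).

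Genes that act around ribosomal proteins were read from lists. Of 48 ribosome biogenesis factors, which transcribe and process ribosomal RNA and assemble the subunits, 1 was higher and 0 were lower in stiff gels, with a median log2 fold change of -0.03. Over all tested genes 3.13% were higher and 2.68% lower, so this count is near the background. The called gene was Polr1d, a subunit shared by RNA polymerases I and III, at 25.8, 27.3 and 25.0 FPKM in soft and 30.7, 31.3 and 32.6 FPKM in stiff replicates 1 to 3. It rose by 0.27 ± 0.06 (SE; limma adjusted p = 0.0383). The call was kept in 1 of 6 fits that left out a library, the one without soft replicate 1, with adjusted p of up to 0.148 in the others.

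Of 22 other genes whose mRNAs are known to carry the tract, such as Eef1a1 and Rack1, 0 were called (limma), 1 had an unadjusted p under 0.05 and the median was 0.03. Eef1a1, the main elongation factor, had 8694 ± 396 FPKM (SD, n = 3) in soft and 8512 ± 498 FPKM (SD, n = 3) in stiff gels. Rack1, a protein of the small subunit that is named outside the series of Rps symbols, had 1233 ± 141 and 1259 ± 53.2 FPKM (SD, n = 3 each). Of 29 initiation and elongation factors 0 were called (limma), 2 had an unadjusted p under 0.05 and the median was -0.01. Beside both lists, 3.13% of all tested genes were called higher and 2.68% lower, and 21.7% had an unadjusted p under 0.05 (limma).

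Among 24 tested regulators of ribosome production by mTOR and Myc, 0 were higher and 2 lower, beside 3.13% and 2.68% of all tested genes, and the median was -0.02. Of the 24, 5 had an unadjusted p under 0.05 (limma), near the 21.7% of all tested genes. Ddit4, which inhibits mTOR complex 1 under stress and low oxygen, had 91.5, 98.2 and 88.4 FPKM in soft and 62.2, 68.0 and 66.5 FPKM in stiff replicates 1 to 3. Every stiff library was below every soft library, and Ddit4 fell by 0.49 ± 0.07 on the log2 scale (SE; limma adjusted p = 0.00918), a call kept in all 6 fits that left out a library. Myc, which drives transcription of ribosome genes, went from 18.1 ± 0.544 to 14.7 ± 0.503 FPKM (SD, n = 3; limma adjusted p = 0.0323). That call was lost in 5 of those 6 fits, with adjusted p of up to 0.122. Larp1 itself had 29.9 ± 0.987 FPKM (SD, n = 3) in soft and 26.4 ± 1.22 FPKM (SD, n = 3) in stiff gels (limma adjusted p = 0.135).

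The p53 response, to which Rpl5 and Rpl11 are tied through Mdm2, had 6 of 16 genes lower and 0 higher in stiff gels, beside 2.68% and 3.13% of all tested genes, with a median of -0.20. The lowest adjusted p was that of Phlda3, a p53 target that restrains Akt, at 24.5, 26.5 and 26.7 FPKM in soft and 18.2, 18.6 and 19.6 FPKM in stiff replicates 1 to 3. The groups did not overlap, and Phlda3 fell by 0.44 ± 0.06 on the log2 scale (SE; limma adjusted p = 0.0104). Without soft replicate 2 or without stiff replicate 1 its limma adjusted p was 0.0554 or 0.0503. In either of those fits 0 of the 6 calls were kept. Calls were fewer over all tested genes too without stiff replicate 1, at 0.958% in either direction. The share over all tested genes without soft replicate 2 is not given here. Among the 6 called genes, Pmaip1 passed the filter on low values through its soft mean alone (1.59 FPKM, against a stiff mean of 0.565). Its call was kept in 3 of the 6 fits that left out a library. Without both replicate 1 libraries 7 of the 16 were lower, beside 5.24% of all tested genes. Rps27l, the p53 target among the members, was at 30.8 ± 3.23 FPKM (SD, n = 3) in soft and 30.4 ± 2.26 FPKM (SD, n = 3) in stiff gels.

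The labelled cell type was read from markers. Of 20 markers of the cochlear epithelium 18 were tested, and 7 of these rose and 0 fell in stiff gels (limma), beside 3.13% and 2.68% of all tested genes, with summed levels of 1446 to 1564 FPKM in soft and 1646 to 1864 FPKM in stiff libraries. Of the 7, Sparcl1 kept its call in all 6 fits that left out a library. Another of the 7, Gjb6, passed the filter on low values through its stiff mean alone (1.27 FPKM, against a soft mean of 0.663). Its call was kept in 0 of those 6 fits. Epcam, an epithelial marker, was at 229 ± 21.1 and 268 ± 16.3 FPKM (SD, n = 3 each, limma adjusted p = 0.147). Cdh1, on the same list, went the other way, from 64.5 ± 2.83 to 55.5 ± 4.81 FPKM (SD, n = 3 each, limma adjusted p = 0.13). Krt8 and Krt18 differed by -0.03 and -0.07 on the log2 scale, stiff minus soft, and neither was called. Of 10 hair cell markers 2 were tested, Myo6 and Myo7a, with 0 called (limma) and 0 at an unadjusted p under 0.05; 5 more were under 1 FPKM, and Atoh1, Pou4f3 and Pvalb were not analysed here. Markers of other cell types summed to 161 to 216 FPKM in soft and 156 to 186 FPKM in stiff libraries. Of these markers 9 were tested and 6 more were under 1 FPKM, with 0 listed at 0 in all libraries. The other 11 tested epithelial markers were not called, and a part of cell makeup in the members' levels was not tested.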

How the data were processed

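The authors deposited 1 table of 15016 genes with 1 expression column per library. The authors' values were taken as FPKM, reads scaled by gene length and library depth before they were deposited; the header says only expression, and the unit was read from low values, which are whole multiples of a step. TopHat2 2.1.1, build mm10 and DESeq2 are named per the submitters' processing notes; the counter and annotation are not given in the sources used here. Base mean, deposited by the authors, is a signal (mean normalized count), and their log2 fold change, fold ratio, score (test statistic), p-value and q-value come from their own fit, per the file headers.

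Reads rebuilt from FPKM and base mean gave depths of 16108470 to 17899391 reads; 100.0% of values were whole within 0.05 reads. Members held from 33 reads in a library (Rpl32l; 901 for the next lowest) to 54751. Genes with a mean of at least 1 FPKM in either group (11780) were fitted with limma 3.58.1 in R 4.3.3 on log2(FPKM + 1) with an intensity trend and Benjamini-Hochberg adjustment over all of them; this scale understates changes of low genes. The fit and the rebuilding were checked on simulated data. limma-voom was run on the rebuilt reads as an alternative; other alternatives changed the pseudocount (0.1), filter, scaling, block, length trend and libraries. Principal transcripts are the shortest of the best APPRIS rank in GENCODE vM21.

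The text names members called, the 3 highest and lowest in level and fold change per subunit, and paralog pairs. It also names members of known special role and the called list member with the lowest adjusted p. Myc, Larp1, Epcam, Cdh1, Krt8, Krt18, Mdm2, Sesn1, Eef1a1 and Rack1 were added after values were seen. So were the steadiest and most variable genes and those with long models. The calls among markers of other cell types are not reported here. Members and lists were chosen with earlier results of these data known.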

Additional observations from a re-analysis of the deposited data

How the results depend on the processing

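The count of called ribosomal protein genes was 0 in each direction under another pseudocount, no filter, 2 other scalings, limma-voom, the length trend taken out, and without each library in turn. It was 2 higher without both replicate 1 libraries (Rpl22l1 and Rpl39), which leaves fewer samples; the cause was not tested. With the replicate number as a block, 0 members were called (all genes 6.03%) and 3 (3.66%) had an unadjusted p under 0.05 (all genes 20.1%); the lowest adjusted p was 0.0529 (limma, Rpl22l1). The labels do not say whether the numbers pair the libraries. Across all tested genes the correlations of the deviations of equal-numbered libraries were 0.01, 0.22 and -0.21 for numbers 1 to 3. Only 1 library of 6, soft replicate 2, correlated best with its own number. Correlations over all genes cannot decide on a tie that touches only some genes, such as the members. Leaving out 1 library moved the median log2 fold change between -0.02 and 0.09 for all members and for the large subunit, and between -0.03 and 0.09 for the small, the difference in share of summed FPKM between -0.27 and 0.86 percentage points, and the subunit ratio's difference between -0.01 and 0.01. Taken from medians instead of sums, the difference in that ratio was 0.05. Median-ratio scaling put the members' median at -0.01 (all genes 0.00), and removing the length trend at -0.04 (all genes 0.00), so the sign of these medians is not fixed. Of 504 values of named genes, under 14 alternatives, 492 kept their side of the threshold, 10 were calls lost (Polr1d and Phlda3) and 2 calls gained; 69 changed sign, all in members that were not called. Depth bears most on Rpl32l, the member with the fewest reads.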
